A study of Homo sapiens with 4 samples.

Results

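A set of receptors of the tumor necrosis factor (TNF) family is described here in RCC4 cells with and without knockdown of PML, the scaffold protein of PML nuclear bodies. They are 9 of the 59050 genes in the count table: the death receptors TNFRSF21, TNFRSF10A, TNFRSF10B, TNFRSF1A and FAS, the receptor TNFRSF12A, and the decoy receptors TNFRSF10D, TNFRSF11B and TNFRSF6B. They were taken by gene name and selected on their values in the comparison of PML knockdown with control in these same libraries, TNFRSF21 for its fall. The shPML to shCtrl values of the 9 genes are therefore given as a description: no p-value is printed for them, and the counts of calls that the fits over all genes made among them support nothing about the knockdown. The comparison between the 2 experiments was not used in the selection and is tested.

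RCC4 is an established line of human clear cell renal cell carcinoma (ccRCC). The cells carried a doxycycline-inducible lentiviral shRNA, either shPML#1 against PML or a scrambled sequence (shCtrl), and were a selected population rather than a single clone. Both groups received doxycycline at 100 ng/ml for 96 h, and the question was which transcripts change when PML is silenced. There were 2 libraries per group, named replicates 1 and 2 after 2 experiments, each with its own lentiviral infection, and a single shRNA against PML was sequenced.

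TNF receptors are membrane proteins that bind trimeric ligands of the TNF family. Death receptors carry a cytoplasmic death domain that recruits the adaptors FADD or TRADD, and through them caspase-8 or the kinase RIPK1. Other members have no death domain and recruit TRAF proteins, which lead to NF-κB. Decoy receptors bind the same ligands but have a truncated death domain or are secreted, so they pass no death signal.

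TNFRSF21 encodes death receptor 6 and is the member whose transcript moved most, so the sequence before its start is shown. The gene lies on the minus strand of chromosome 6 at 47231532 to 47309905 in GRCh38, and no exon base of it is shared with another gene in the count table. The 250 bases upstream of the start in RefSeq (GRCh38.p14, minus strand, chr6:47309906-47310155) are printed 5′ to 3′, with capitals marking a GC box and an E-box. No exon of the count table lies in this window.

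TNFRSF21 upstream: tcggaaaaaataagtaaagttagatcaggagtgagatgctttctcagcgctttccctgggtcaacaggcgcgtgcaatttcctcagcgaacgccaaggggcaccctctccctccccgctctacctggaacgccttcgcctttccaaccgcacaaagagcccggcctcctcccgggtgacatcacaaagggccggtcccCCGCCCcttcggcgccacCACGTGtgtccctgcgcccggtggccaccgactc

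The window of TNFRSF21 is 62.0% G and C. Motifs were searched on both strands as letters: the GC box GGGCGG, the TATA box TATAAA, the AP-1 site TGANTCA, the E-box CACGTG and the p53 half-site. The GC box was found at 1 place in TNFRSF21, on the reverse strand, as it was in 42.64% of 35116 RefSeq promoter windows of the same length. The E-box, which reads the same on both strands, was also found at 1 place, against 6.34% of all windows. The other motifs were not in this window, and they occurred in 10.72% (TATA box), 6.57% (AP-1) and 5.57% (p53 half-site) of all windows. RefSeq windows were matched for 4 of the 9 members, the others being FAS, TNFRSF1A and TNFRSF6B. The FAS window held 1 GC box and 1 AP-1 site, and the TNFRSF1A window held none of the 5 motifs. Unlike that of TNFRSF21, these windows overlap exons of the count table: FAS and AL157394.2 exons for FAS, and TNFRSF1A exon for TNFRSF1A. A match is a string of letters and not a measured binding site.

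The 4 libraries held 27781193 to 69870617 counted reads, and 16516 genes passed the filter on low counts. PML itself was read at 93.1 and 136 CPM (TMM-scaled counts per 1e6 counted reads) in shCtrl replicates 1 and 2 and at 54.9 and 87.6 CPM in shPML replicates 1 and 2. The knockdown left 0.589 of the control level in replicate 1 and 0.644 in replicate 2. In edgeR's quasi-likelihood test the log2 fold change of PML was -0.69 with adjusted p = 0.320, and with the replicate number as a block it was -0.70 with adjusted p = 4.19e-07. All 9 renal and ccRCC markers looked for, among them PAX8, CA9 and VIM, were above 3 counts in every library.

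The library of shPML replicate 2 stood apart from the other 3. It had 87 genes with at least 50 counts that had at most 2 counts in each other library, whereas the other libraries had 0, 0 and 1 such genes. The summed level of 4 leukocyte markers was 0.148, 0.194 and 0.279 CPM in shCtrl replicate 1, shCtrl replicate 2 and shPML replicate 1, and 55.6 CPM in shPML replicate 2. There CD14 had 1177 counts and PTPRC 346, while the T cell marker CD3E was at 0 in all libraries. A list of 13 myeloid markers, chosen after the leukocyte values were seen, was summed too. It came to 2.73 to 3.11 CPM in the other libraries and to 221 CPM in this one. LYZ had 2349 counts here, but 2 of the list, CD68 and C1QB, had 0. The 4 endothelial markers summed to 0.148 to 0.389 CPM and to 4.36 CPM in shPML replicate 2. In that library PECAM1 made 4.11 CPM (113 counts), while VWF had 7 counts and CDH5 and TEK had 0. The 4 fibroblast or pericyte markers summed to 7.74 to 12.6 CPM in all libraries, with DCN and LUM at 0. The part of these transcripts in the results was not tested, so each member is also given within replicate 1, where the leukocyte markers were near 0 in both libraries.

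TNFRSF21 was the member with the largest difference between the groups. Its counts were 3138 and 2922 in shCtrl replicates 1 and 2, and 384 and 155 in shPML replicates 1 and 2. Scaled by TMM, these were 58.0 and 81.2 CPM in shCtrl against 5.36 and 5.64 CPM in shPML. Both knockdown libraries lay far below both controls, with shPML 10.8 times lower in replicate 1 and 14.4 times lower in replicate 2. The shCtrl libraries averaged 69.6 CPM with an SD of 16.4, and the shPML libraries 5.50 CPM with an SD of 0.199 (n = 2 each). The log2 fold change fitted without a block was -3.66 (SE 0.23), and 20 genes of the 16516 had a lower one. The fitted values of the other members are also without a block unless stated. Their SEs include the difference between the experiments. Without shPML replicate 2 the fitted value was -3.70.

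The 2 receptors for TRAIL (TNFSF10) that carry a full death domain were both higher in shPML. TNFRSF10B (DR5) had 190 and 174 CPM in the shCtrl libraries and 309 and 284 CPM in the shPML libraries, which is 1.63-fold in each replicate. TNFRSF10A (DR4) had 31.2 and 27.5 CPM in shCtrl and 45.4 and 46.5 CPM in shPML, or 1.46-fold and 1.69-fold within replicates 1 and 2. In neither gene did the groups overlap. The fitted log2 fold changes were 0.71 (SE 0.15) for TNFRSF10B and 0.65 (SE 0.16) for TNFRSF10A. Of the exon bases of TNFRSF10A, 8.3% are also exon of the antisense gene TNFRSF10A-AS1, and the strand setting of the counting is not given in the sources used here.

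FAS, the receptor of FAS ligand, had 49.8 and 39.6 CPM in shCtrl and 80.6 and 67.8 CPM in shPML. The shPML libraries were above both controls, 1.62-fold in replicate 1 and 1.71-fold in replicate 2, with a fitted log2 fold change of 0.73 (SE 0.19). FAS shares 30.7% of its exon bases with another gene on its own strand and 40.2% on either strand (AL157394.1 and AL157394.2). How reads on shared bases were counted is not given in the sources used here, so its level is less certain than that of TNFRSF21.

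TNFRSF1A, the main receptor of soluble TNF, differed between the experiments and hardly between the groups. It had 98.4 and 140 CPM in shCtrl and 95.9 and 143 CPM in shPML. Replicate 2 was the higher library in both groups, the groups overlapped, and the ratio of shPML to shCtrl was 0.975 in replicate 1 and 1.02 in replicate 2. The fitted log2 fold change was 0.01 (SE 0.27) without a block and -0.0012 (SE 0.10) with the replicate block.

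TNFRSF12A (Fn14), the receptor of the ligand TWEAK, has no death domain. It was read at 126 and 213 CPM in shCtrl and at 164 and 251 CPM in shPML. The groups overlapped because replicate 2 was again the higher library, while within replicates shPML was 1.31-fold and 1.18-fold above shCtrl. The fitted log2 fold change was 0.30 (SE 0.33) without a block and 0.31 (SE 0.10) with the replicate block.

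The decoy receptors had the lowest levels of the members in shCtrl. TNFRSF10D, a TRAIL decoy with a truncated death domain, had 23.3 and 16.6 CPM in shCtrl and 31.2 and 27.4 CPM in shPML. Its shPML libraries were above both controls, 1.34-fold in replicate 1 and 1.65-fold in replicate 2, with a fitted log2 fold change of 0.56 (SE 0.22). TNFRSF11B (osteoprotegerin), a secreted decoy for RANKL and TRAIL, had only 62 and 29 counts in shCtrl and 94 and 15 counts in shPML. That is 1.15 and 0.806 CPM against 1.31 and 0.546 CPM: the groups overlapped, and the difference had a different sign in the 2 experiments. TNFRSF6B (DcR3), a secreted decoy for FAS ligand, had 1 count in shCtrl replicate 1 and 0 in the other libraries, which allows up to 3 counts, or 0.0418 to 0.109 CPM per library. No fold is given for it, it failed the low-count filter, and 90.5% of its exon bases are shared with RTEL1-TNFRSF6B and ARFRP1.

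**Figure D1:**
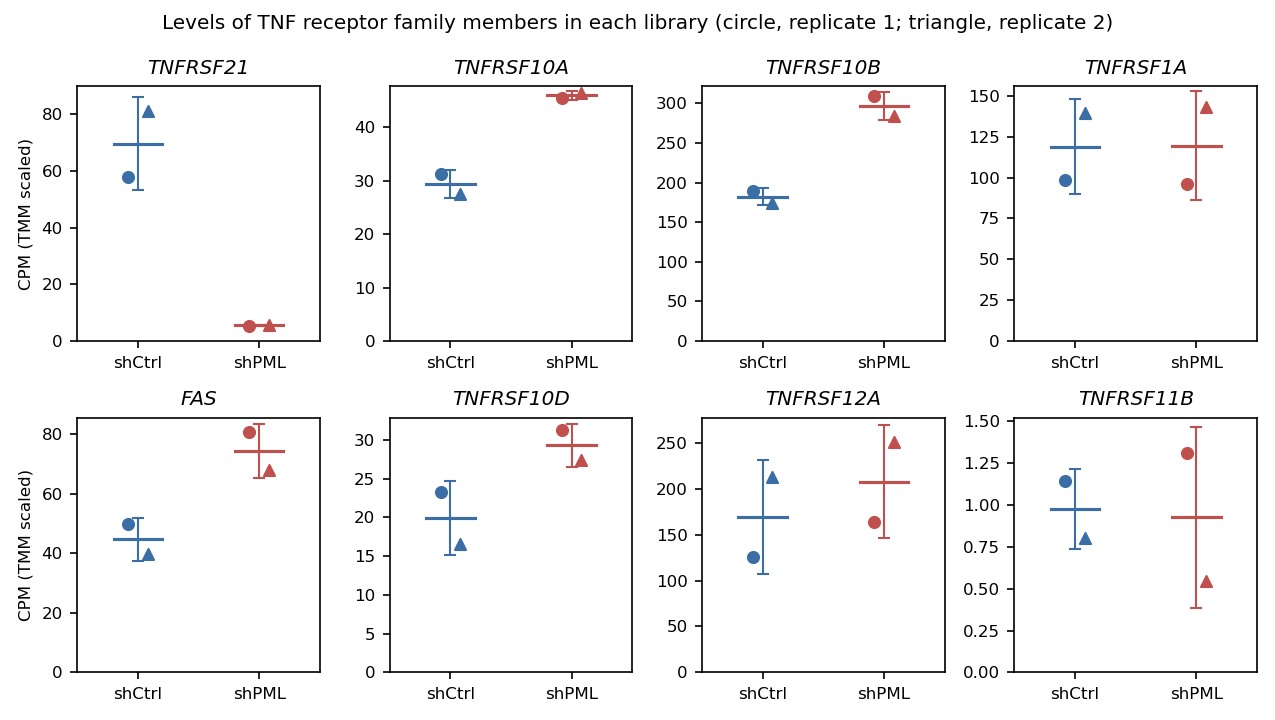
Level in CPM (TMM scaled, linear axes from 0, scaled separately) of the 8 members that passed the filter on low counts. Circles are replicate 1, triangles replicate 2, the horizontal line is the mean and the bar 1 SD (n = 2). TNFRSF21 is the only member with both shPML libraries below both shCtrl libraries, and for TNFRSF10A, TNFRSF10B, FAS and TNFRSF10D both shPML libraries are above both shCtrl libraries.

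Both shPML libraries were above both shCtrl libraries for 4 members (TNFRSF10A, TNFRSF10B, FAS and TNFRSF10D) and below them for 1 (TNFRSF21). Over all genes tested these shares were 23.1% and 24.9%. A call required a log2 fold change beyond 0.5 together with an adjusted p below 0.05. In edgeR without a block, TNFRSF21 was called lower and 0 members were called higher, while 0.333% of all genes tested were called lower and 0.0787% higher. Before adjustment, 3 members had p below 0.05 in the higher direction and 1 in the lower, against 7.8% and 10.1% of all genes tested. With the replicate block, 4 members were called higher and 1 lower, and they were the 5 members named above. The block called 8.57% of all genes tested higher and 10.5% lower. These members were selected on this contrast, so the counts describe the selection and are not read against the shares.

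**Figure D2:**
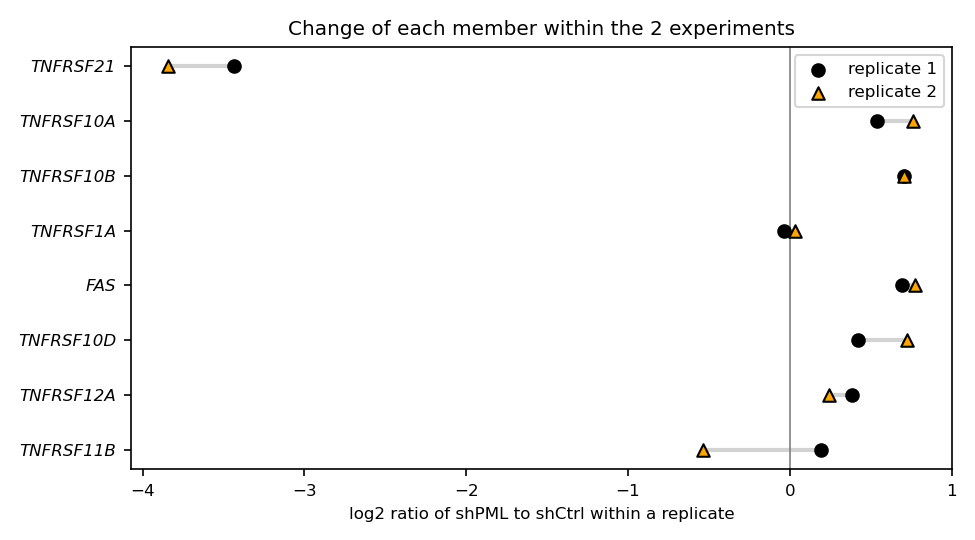
log2 ratio of shPML to shCtrl within replicate 1 (circles) and replicate 2 (triangles) for each member, with 0.5 count added to each value. TNFRSF21 sits at -3.43 and -3.84, the TRAIL receptors and FAS between 0.42 and 0.77, TNFRSF1A at -0.04 and 0.03, and TNFRSF11B on both sides of 0.

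Replicate 2 was compared with replicate 1 for each member. In edgeR with the knockdown as a term, TNFRSF12A was higher in replicate 2 by a log2 value of 0.69 (SE 0.10, adjusted p = 1.55e-07). TNFRSF1A was higher by 0.54 (SE 0.10, edgeR adjusted p = 4.56e-05). Each was higher in both groups, TNFRSF12A by 0.76 in shCtrl and 0.62 in shPML, and TNFRSF1A by 0.50 and 0.58. Over all genes tested, 8.93% were called higher and 4.53% lower in replicate 2, and of the 8 members tested 2 were called higher and 0 lower. By edgeR, TNFRSF21 (0.32, adjusted p = 0.0688), FAS (-0.29, adjusted p = 0.0598) and TNFRSF10D (-0.34, adjusted p = 0.0501) did not pass. TNFRSF10B (-0.12, adjusted p = 0.408), TNFRSF10A (-0.07, adjusted p = 0.730) and TNFRSF11B (-0.87, adjusted p = 0.251) did not pass either. Replicate 2 includes the shPML library with the leukocyte transcripts. In shCtrl, where those markers were near 0 in both libraries, the ratios of the 2 called members were as given above.

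**Figure D3:**
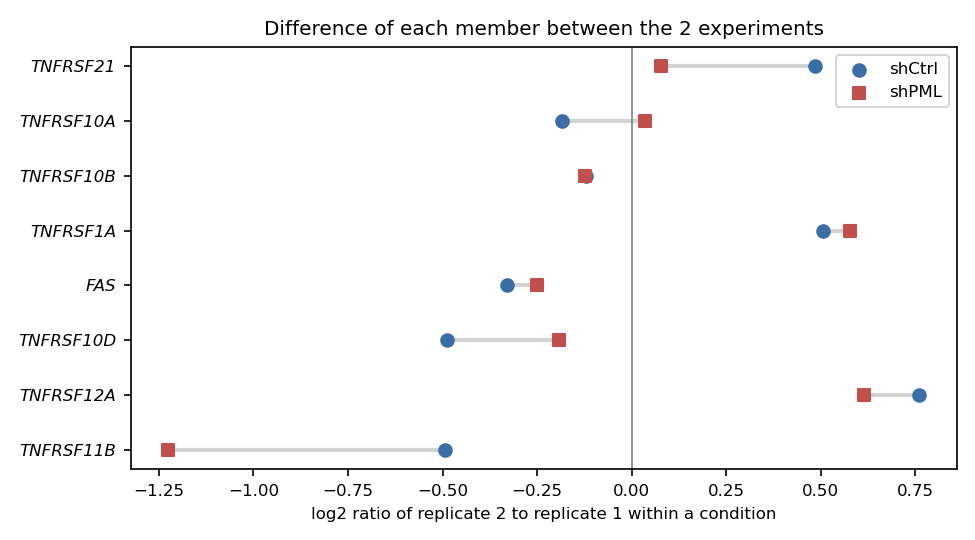
log2 ratio of replicate 2 to replicate 1 within shCtrl (circles) and within shPML (squares) for each member. TNFRSF12A (0.76 and 0.62) and TNFRSF1A (0.50 and 0.58) are positive in both groups, and TNFRSF11B, with 15 to 94 counts, spreads most.

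Levels were compared between members only as CPM per kilobase of exon, which allows for transcript length. In shCtrl, TNFRSF12A came first with 121 ± 44.3 CPM per kilobase (SD, n = 2). TNFRSF10B (45.5 ± 2.71) and TNFRSF1A (40.0 ± 9.79) followed, and their libraries overlapped. TNFRSF21 came next with 19.4 ± 4.56, ahead of FAS (11.2 ± 1.80) and TNFRSF10A (10.8 ± 0.972), which overlapped each other. FAS was divided by its whole exon length, although 30.7% of its exon bases are shared with another gene on its strand. Its place below TNFRSF21 is therefore less certain. TNFRSF10D had 5.64 ± 1.34, TNFRSF11B 0.467 ± 0.115, and TNFRSF6B 0.00810 CPM per kilobase. Without knockdown the level of TNFRSF21 lay above that of 80.3% of the genes tested, against 97.5% for TNFRSF12A, 91.5% for TNFRSF10B and 18.7% for TNFRSF11B.

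In shPML, TNFRSF21 stood in rank 7 with 1.53 ± 0.0553 CPM per kilobase (SD, n = 2), below TNFRSF10D (8.29 ± 0.779). The order of the other members did not change. TNFRSF10B (74.3 ± 4.45) and TNFRSF1A (40.1 ± 11.2) no longer overlapped, and FAS (18.6 ± 2.27) and TNFRSF10A (16.9 ± 0.283) still did. Of the summed level of the 9 members, TNFRSF21 made 7.40% and 7.76% in the shCtrl libraries and 0.541% and 0.457% in the shPML libraries.

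The TRAIL receptors kept their proportions. TNFRSF10B made 72.4% to 75.2% of the summed level per kilobase of TNFRSF10A, TNFRSF10B and TNFRSF10D in the 4 libraries, TNFRSF10A 16.3% to 17.9% and the decoy TNFRSF10D 8.03% to 10.1%. The shares of the shCtrl and shPML libraries overlapped for all 3 genes, although the summed level of both death receptors was 58.9 and 53.7 CPM per kilobase in shCtrl and 94.1 and 88.3 in shPML. The 3 genes lie within 23020133 to 23225126 on chromosome 8 of GRCh38, on the minus strand. TNFRSF10C, the other TRAIL decoy, lies between TNFRSF10B and TNFRSF10D on the plus strand and failed the low-count filter.

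The 5 genes whose 4 centred log2 CPM values lay nearest to those of TNFRSF21 were C4BPB (Euclidean distance 0.40), ANO2 (0.45), CNN1 (0.49), INHBB (0.52) and TAGLN (0.53). C4BPB encodes a chain of the complement regulator C4b-binding protein, ANO2 a calcium-activated chloride channel, CNN1 calponin, INHBB an inhibin and activin subunit, and TAGLN transgelin, an actin-binding protein of smooth muscle. TAGLN had the highest level of these, with 159 and 209 CPM in shCtrl and 21.4 and 20.7 CPM in shPML. C4BPB had the lowest, with 48 and 53 counts against 8 and 2. They were ranked on only 4 libraries, and the order follows the knockdown difference.

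Of the ligands of these receptors, TNFSF10 (TRAIL) was read at 49.3 and 51.9 CPM in shCtrl and at 48.0 and 38.7 CPM in shPML. TNF had 69, 48, 48 and 23 counts in shCtrl replicates 1 and 2 and shPML replicates 1 and 2. FASLG and TNFSF11 (RANKL) were at 0 in all libraries, and TNFSF12 (TWEAK), which shares 40.2% of its exon bases with a read-through gene on its strand, did not pass the filter. The log2 fold changes of TNFSF10 and TNF, -0.22 and -0.80, were not called in edgeR without a block (adjusted p = 0.594 and 0.460) or with it (adjusted p = 0.164 and 0.256). For FASLG and TNFSF11 a count of 0 allows up to 3 counts per library, so their transcripts were not detectable at this depth.

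Among all 18 ligands, 11 were tested. In edgeR without a block 0 were called higher and 0 lower, where 0.0787% and 0.333% of all genes tested were. Before adjustment 4 had p below 0.05 as higher and 1 as lower, where 7.8% and 10.1% of all genes tested did. With the replicate block 2 were called higher and 1 lower, where 8.57% and 10.5% of all genes tested were. CD70, the ligand of CD27 and a gene with high levels in ccRCC, had 157 and 181 CPM in shCtrl and 264 and 336 CPM in shPML (log2 fold change with the block 0.82, edgeR adjusted p = 5.94e-10; without it adjusted p = 0.114). CD70 was also the ligand with the highest level per kilobase. LTB, lymphotoxin beta, had 113 and 176 counts in shCtrl and 33 and 23 in shPML; its log2 fold change was -2.35 (edgeR with the block, adjusted p = 5.66e-06; without it 0.130). TNFSF13B (BAFF), a B cell survival factor, had 5 and 2 counts in shCtrl and 30 and 52 in shPML, and was called higher with the block (3.46, edgeR adjusted p = 0.00132; without it 0.151). The highest count of TNFSF13B was in the library with the leukocyte transcripts, and within replicate 1 its ratio was 4.19. The median log2 fold change over the 11 ligands was 0.08, against 0.01 over all genes tested.

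Of 20 other TNF receptors, 19 were in the count table and 8 were tested. Without the block 0 were called in either direction by edgeR, where 0.0787% of all genes tested were called higher and 0.333% lower. Before adjustment 1 had p below 0.05 as higher and 1 as lower, where 7.8% and 10.1% of all genes tested did. The block called 8.57% of all genes tested higher and 10.5% lower, and in this list only TNFRSF19 (TROY), which was lower. TNFRSF19 had 56.9 and 67.1 CPM in shCtrl and 38.4 and 33.1 CPM in shPML. Its log2 fold change was -0.79 (edgeR with the block, adjusted p = 4.39e-07, and without it 0.106). CD40, the most abundant of the list, had 83.8 and 71.6 CPM in shCtrl and 86.7 and 67.2 CPM in shPML. The groups of CD40 overlapped and its log2 fold change was -0.01 (edgeR adjusted p = 0.983). The median of the list was 0.02.

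Some TNF receptors of leukocytes were read only, or for TNFRSF14 mostly, in shPML replicate 2. TNFRSF1B, the second TNF receptor, had 255 counts there and 0 in the other 3 libraries. TNFRSF4 (OX40) had 23 and TNFRSF8 (CD30) had 9 counts, again with 0 elsewhere. TNFRSF14 (HVEM) had 164 counts against 1, 0 and 7. The kinase RIPK3, which acts in necroptosis below TNF receptors, had 31 counts against 0. In shPML replicate 1, where the leukocyte markers were near 0, TNFRSF14 had 7 counts and the other 4 genes had 0. None of these genes passed the filter, they were chosen after their values were seen, and the part of the knockdown or of the leukocyte transcripts in their counts was not tested. Other receptors of the list did not follow this pattern. CD27 had 3 and 1 counts in shCtrl replicates 1 and 2, and 11 and 0 in shPML replicates 1 and 2. TNFRSF13B had 0 in all libraries, and TNFRSF17 and TNFRSF18 had 0 in shPML replicate 2. TNFRSF9 and TNFRSF13C had their lowest CPM in that library.

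**Figure D4:**
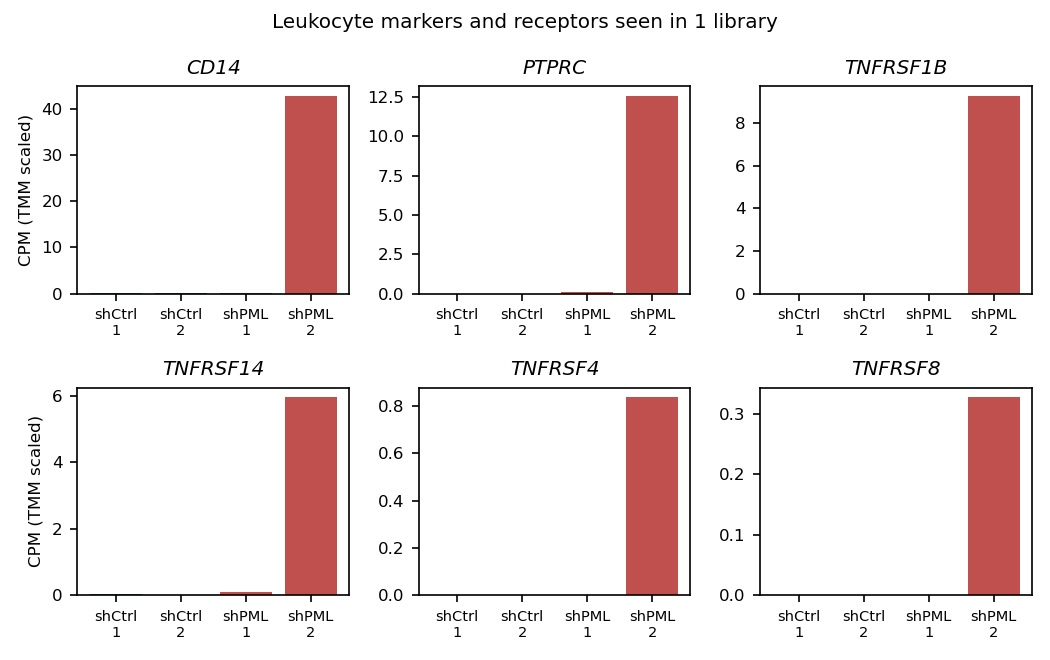
Level in CPM (TMM scaled, linear axes from 0) of the leukocyte markers CD14 and PTPRC and of 4 TNF receptors in each library, 1 bar per library. All 6 genes are highest in shPML replicate 2, where TNFRSF1B has 255 counts, and near 0 in the other 3 libraries.

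Among the adaptor and proximal signalling genes, which lie just below the receptors, 4 were called in either edgeR fit. Of 29 genes 27 were tested, and their median log2 fold change was 0.000085, near that of all genes tested. Without a block edgeR called 1 higher and 0 lower: TRAF1, an adaptor induced by NF-κB, had 62.3 and 63.7 CPM in shCtrl and 177 and 159 CPM in shPML (log2 fold change 1.41, SE 0.15, adjusted p = 0.0484). With the block 3 were called higher and 1 lower. Over all genes tested, 8.57% were called higher and 10.5% lower with the block, and 0.0787% and 0.333% without it. TNFAIP3 (A20), a ubiquitin-editing inhibitor of NF-κB, had 95.3 and 102 CPM in shCtrl and 152 and 175 CPM in shPML (0.73, edgeR with the block, adjusted p = 5.72e-08; without it 0.105).

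The 2 cellular inhibitors of apoptosis that bind TRAF2 differed in opposite directions, and were called with the block but not in the filtered edgeR fit without it. BIRC3 (cIAP2) had 189 and 202 CPM in shCtrl and 308 and 280 CPM in shPML, a log2 fold change of 0.59 (edgeR with the block, adjusted p = 2.50e-06; without it 0.141). BIRC2 (cIAP1) had 207 and 210 CPM in shCtrl and 129 and 113 CPM in shPML, a log2 fold change of -0.78 (edgeR with the block, adjusted p = 5.21e-09; without it 0.0895). The groups of neither gene overlapped. RBCK1 (HOIL-1), the most abundant gene of the list per kilobase, had 315 and 441 CPM in shCtrl and 295 and 438 CPM in shPML, and like TNFRSF1A it differed between experiments (0.53, edgeR adjusted p = 1.49e-05) and was not called between groups.

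Of the genes that act further downstream in cell death, 5 are described (BID, CASP6, CASP9, APAF1 and DIABLO). All 5 were tested, with 0 calls by edgeR without or with the block, 0 with an unadjusted p below 0.05 without it, and a median log2 fold change of 0.11. With the block, BID (-0.30, edgeR adjusted p = 0.0312) and APAF1 (0.37, edgeR adjusted p = 0.0131) passed the p threshold. Their log2 fold changes were within 0.5. BID, which links caspase-8 to the mitochondrion and had the highest level of the list per kilobase, had 89.9 and 104 CPM in shCtrl and 78.6 and 78.7 CPM in shPML. Of 5 genes of receptor and ligand shedding, 4 were tested. Without a block 0 were called and 0 had an unadjusted p below 0.05. With it RHBDF1 (iRhom1), a carrier of the sheddase ADAM17, was called higher. Over all genes tested, the block called 8.57% higher and 10.5% lower. Without it, 0.0787% were called higher and 0.333% lower, and 7.8% had an unadjusted edgeR p below 0.05 as higher and 10.1% as lower. RHBDF1 had 27.5 and 30.0 CPM in shCtrl and 32.2 and 53.5 CPM in shPML (0.53, edgeR with the block, adjusted p = 0.000866; without it 0.352). Its ratio was 1.17 in replicate 1 and 1.78 in replicate 2, the latter with the library that held the leukocyte transcripts, whose part in this value was not tested. RHBDF2 (iRhom2), with the highest mean level of the list per kilobase, had 94.7 and 125 CPM in shCtrl and 75.1 and 112 CPM in shPML. It was not called.

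**Figure D5:**
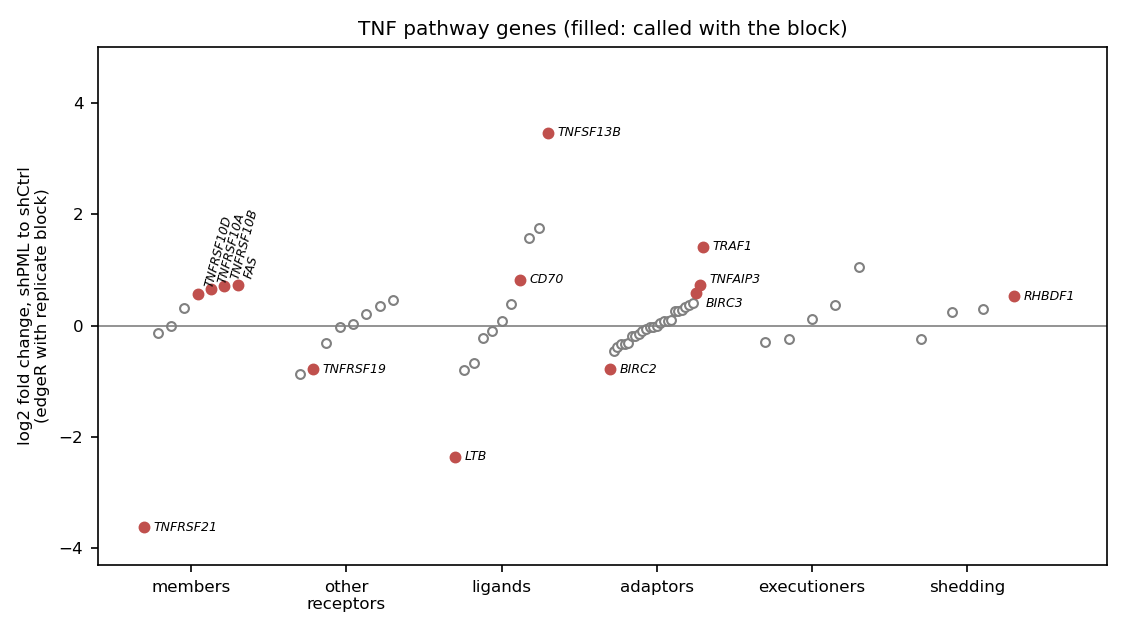
log2 fold change of shPML to shCtrl in edgeR with the replicate block for every tested gene of the 9 members and of 5 other lists of the TNF pathway. Filled points were called with the block. TNFRSF21 (-3.62) and LTB (-2.35) are the lowest and TNFSF13B (3.46) the highest.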

How the data were processed

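RNA-seq was carried out on 4 RCC4 libraries (2 shCtrl, 2 shPML). Per the labels and the study's methods, the authors prepared TruSeq stranded mRNA libraries, trimmed reads with Trimmomatic 0.39, mapped them to GRCh38 with STAR and obtained gene counts from featureCounts 1.6.4. The Gencode release and the strand setting are not given in the sources used here. The deposited values are raw counts per gene, and the deposited gene length in bases is from the same table. Columns without a number were read as replicate 1, and 0 columns were left out. The total counts per library (27781193 to 69870617) set the precision, and floors cover counting error only.

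Counts were analysed with edgeR 4.0.16 (quasi-likelihood test, TMM, filterByExpr, Benjamini-Hochberg over 16516 genes), and DESeq2 1.42.0 was an alternative. A call required a log2 fold change beyond 0.5 and an adjusted p below 0.05. These thresholds are those of the study's methods, where the authors used them with DESeq2 and not edgeR. Log2 ratios within a replicate add 0.5 count. Scripts were tested on simulated data.

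The replicate numbers mark experiments with separate infections and were taken to pair the libraries: the deviations of the replicate 1 libraries from their group means correlated at r = 0.537 across genes, which are not independent replicates. Without a block, p-values were set against the spread between the 2 libraries of a group. In fits with both replicate and knockdown as terms, they were set against how far the knockdown difference varied between the experiments. The fit without a block is given first and the paired fit beside it.

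The members and the gene lists were chosen with earlier results of these data known. Named were the 9 members, PML, their ligands (TNFSF10, FASLG, TNF, TNFSF12 and TNFSF11), list genes called in either edgeR fit (up to 6 a list, by the smallest p with the block), the most abundant gene per kilobase of each list, and the 5 genes nearest to TNFRSF21. The other genes named, among them TNFRSF1B, TNFRSF4, TNFRSF8, TNFRSF14 and RIPK3, and the list of 13 myeloid markers were chosen after their values were seen. Upstream sequence and motif shares were taken from RefSeq (GRCh38.p14). Some genes of the cell death list are not reported here.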

Additional observations from a re-analysis of the deposited data

Results flagged for a closer look

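PML, the members, their ligands and the list genes named by call or level were checked where some library had more than 3 counts. For 3 of these genes the difference between shPML and shCtrl had opposite signs in the 2 experiments. Other genes named in the text, such as the cell type markers, were not part of this check. Whether the shPML to shCtrl ratio itself differed between the experiments was not tested. The log2 ratio of TNFRSF11B was 0.19 in replicate 1 and -0.54 in replicate 2, on 15 to 94 counts per library. The log2 ratio of TNFRSF1A was -0.037 in replicate 1 and 0.035 in replicate 2. The log2 ratio of CD40 was 0.049 in replicate 1 and -0.090 in replicate 2.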

How the results depend on the processing

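With the replicate block, edgeR called 3150 genes in place of 68, 5 members in place of 1 and 9 other pathway genes in place of 1. DESeq2 called 1475 genes, 4 members and 7 pathway genes without the block and 2495, 5 and 8 with it. Without a filter on low counts edgeR called 1837, 4 and 11, with at least 10 counts in every library 197 genes, and with RLE normalization 0 in each of the 3 counts. When 1 library was left out, which leaves a lone sample assumed to vary like the other group, it called 0 to 248 genes, 0 to 1 members and 0 to 2 pathway genes: 0 of each without shCtrl replicate 1, shCtrl replicate 2 or shPML replicate 2, and 248, 1 and 2 without shPML replicate 1. The log2 fold change of TNFRSF21 was -3.87 to -3.41 over these 4 fits. TNFRSF10D was called only in fits with the block. Between replicates, leaving out the knockdown term gave 0 genes in place of 2224 and 0 members in place of 2, with edgeR adjusted p = 0.308 for TNFRSF1A and 0.340 for TNFRSF12A. By CPM without division by length, TNFRSF10B took the first place and TNFRSF12A the next, and the other ranks were the same. With 2 libraries a group and the experiments apart, small differences are limited by the spread in fits without the block. For TNFRSF12A the log2 fold change was 0.30 (SE 0.33) without the block and 0.31 (SE 0.10) with it. In the edgeR fit with the block, TNFRSF12A was not called because its log2 fold change was below the threshold for a call. TNFRSF11B and TNFRSF6B are limited by their counts.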

Other observations

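The counts of some genes of the TNF pathway were 0 or low. RNF31, a partner of RBCK1 in the linear ubiquitin ligase, had 0, 6, 0 and 0 counts in shCtrl replicates 1 and 2 and shPML replicates 1 and 2, while RBCK1 had 12046 to 21115. Of the exon bases of RNF31, 96.2% are shared with AL136295.5 on the same strand. DIABLO, with 48.6% of its exon bases shared on its strand, had 66 and 21 counts in shCtrl and 193 and 31 in shPML. TIMP3, an inhibitor of ADAM17 that shares no exon bases, had 1, 0, 1 and 0 counts.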
